A study of Homo sapiens with 6 samples.

Results

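Processed pseudogenes of the ribosomal proteins were followed in NCI-H460 cells, a human cell line from a large cell carcinoma of the lung. The members were the rows whose symbol joined a ribosomal protein name to P and a number (RPL13AP5, for example) and whose mean over the 6 libraries was at least 5 FPKM (mapped fragments scaled to the length of the transcript and the size of the library). By this rule 93 of the 52775 rows were members, out of 1497 rows with such a name, of which 595 were listed at 0 in every library. The other 1404 rows with such a name had a mean under 5 FPKM. Names of another form, such as those of RPSA or RPLP0 copies, were left out. The members were thus chosen by their mean FPKM, so levels are given as descriptions with no test. In each group a lentivirus had delivered KRAB-dSpCas9, a Cas9 without cutting activity that carries the repressor domain KRAB, with 1 guide RNA, an arrangement that lowers transcription at the guide's target. The groups were sg2 and sg1, guides against CPT1 with the genotype label CPT1 knockdown, and sgNTG, a nontargeting guide with the genotype label WT, with 2 libraries each and 2 µg/ml puromycin from 48 h after infection. CPT1 passes long-chain fatty acids into mitochondria, and its isoforms were not analysed here, which leaves the strength of the knockdown unknown. Nothing in the labels ties the libraries of a group to separate cultures, so a p-value here reflects the spread between libraries, possibly only a technical one.

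A processed pseudogene arises when a spliced messenger RNA is copied into DNA and inserted elsewhere in the genome, usually by the enzymes of LINE-1 elements. It carries no introns of its parent and, as a rule, no promoter of its parent, and it gathers mutations over time. Ribosomal protein genes, which are short, strongly transcribed and active in nearly every cell, have left very many such copies in the human genome. Their proteins form the large subunit (RPL names), which joins amino acids, and the small subunit (RPS names), which reads the messenger RNA.

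The annotation fitted the label. GENCODE 29 (build hg38) held all 93 members, 69 matched by name and 24 by gene identifier, and listed 90 as processed pseudogenes, 2 as transcribed processed pseudogenes (RPS27AP16 and RPL6P27) and 1, RPS27AP5, as protein coding. A single exon was annotated for 92, RPL6P27 being the exception. The members lay on 23 chromosomes, with a median length of 492 nt (78 to 1284 nt), and 63 had a large-subunit parent and 30 a small-subunit parent. Outside any other annotated gene lay 43 members. Introns of another gene held 28 on the opposite strand and 14 on the same strand, while 5 overlapped an exon on the opposite strand and 3 on the same strand. The strand setting of the counting is not given in the sources used here, so reads of a member and of the gene around it cannot be told apart by strand. The 93 members came from 48 parents, of which 28 were listed in the table used here, leaving 35 members without a parent value.

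Libraries correlated across tested genes at Pearson r of 0.9908 to 0.9923 within groups and 0.9884 to 0.9912 between groups. Absolute depth is unknown. Relative depth rests on the value seen most often among genes of 107 nt, assumed to be that of 1 fragment. That value was seen only 6 to 14 times among 71 to 82 values above 0 in a library. It gave relative depths of 0.932 and 0.906 for sg2, 0.937 and 0.972 for sg1, and 0.853 and 1.0 for sgNTG. The epithelial keratins KRT18 (87.4 to 102 FPKM) and KRT19 (140 to 179 FPKM) were present in every library, whereas the epithelial cadherin CDH1 stayed at or below 0.105 FPKM. Of the lung alveolar markers, NKX2-1 and SFTPB stayed at or below 0.062 FPKM, and the fibroblast marker PDGFRA at or below 0.049 FPKM. CD68, the immune marker listed, had 21.5 to 26.5 FPKM. In bulk RNA a change in the share of cells and a change in the RNA of each cell cannot be told apart.

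The sequences of 3 members are shown beside their parents because they run from an identical to a more diverged copy, and because likeness to the parent bears on every level that follows. Each is a window of 60 nt of the coding sequence holding the most substitutions, 5′ to 3′, from GENCODE 29 transcripts, with capitals where member and parent differ. RPL36AP37 (chr11:16974954-16975013, minus strand) copies RPL36A, a large-subunit protein beside the tRNA exit site, and matched all 321 nt of its coding sequence, so no capital appears. RPL23AP42 (chr3:161429221-161429280, minus strand) copies RPL23A, a protein at the mouth of the exit tunnel, and had 2 substitutions in 471 nt. Counted from the first coding base of RPL23A, these were G348C and C377T. RPS27AP5 (chr1:192716195-192716254, plus strand) copies RPS27A, which is made as a fusion with ubiquitin, and had 10 substitutions, 4 of them in this window.
RPL36AP37: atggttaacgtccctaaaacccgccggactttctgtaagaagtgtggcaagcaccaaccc
RPL36A: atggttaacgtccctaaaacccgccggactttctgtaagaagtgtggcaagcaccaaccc
RPL23AP42: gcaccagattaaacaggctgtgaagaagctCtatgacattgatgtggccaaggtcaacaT
RPL23A: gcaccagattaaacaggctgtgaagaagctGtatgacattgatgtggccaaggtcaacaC
RPS27AP5: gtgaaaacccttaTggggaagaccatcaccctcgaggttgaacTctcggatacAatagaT
RPS27A: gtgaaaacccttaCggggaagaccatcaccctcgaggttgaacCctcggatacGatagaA
Over the 58 members with a listed parent, identity was counted over the aligned part of the parent's coding sequence. It had a median of 98.4% and ran from 76.95% to 100%. It was at least 98% in 33 members, exactly 100% in 5 and under 95% in 4. The longest stretch shared without a mismatch had a median of 158 nt (14 to 384 nt) and reached 150 nt or more in 33 members. The parent's coding sequence was covered from end to end in 41 members and to at least 72.1% in every one of the 58. Its reading frame ran uninterrupted in 27. How reads that match a parent and its copies equally were divided is not given in the sources used here, so over shared stretches the level of a copy cannot be told apart from that of its parent or of another copy.

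The members spanned a wide range of levels above the 5 FPKM that chose them. Their median was 58.0 FPKM; 31 lay from 5 to 20 FPKM, 24 from 20 to 100 and 38 at 100 or more. Of the 343 rows at 100 FPKM or more, 38 were members and 37 were ribosomal protein genes, and of the 100 highest rows 16 were members. The summed member FPKM made up 5.66% ± 0.002 of the table's sum with sg2, 6.27% ± 0.123 with sg1 and 5.94% ± 0.013 with sgNTG (SD, n = 2 each). The 10 highest members held between 46.8% and 47.5% of the member sum in each library.

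RPL23AP42 was the highest member and ranked 14 in the whole table, with 1111 and 1121 FPKM in the sg2 libraries, 1224 and 1204 in the sg1 libraries and 1158 and 1152 in the sgNTG libraries. RPL13AP5, a copy of RPL13A, which besides its place in the large subunit is known for silencing the translation of inflammatory messengers, ranked 17 with 1021 and 1032 FPKM (sg2), 1191 and 1141 (sg1) and 1082 and 1067 (sgNTG). RPL39P3, from the exit tunnel protein RPL39, ranked 21 with 914 and 878 FPKM (sg2), 1034 and 1001 (sg1) and 966 and 942 (sgNTG). In all 3 the groups stood apart in the same order, sg1 highest and sg2 lowest, with no overlap. RPL41P1, a copy of the very short, basic protein RPL41, had 707 and 653 FPKM with sg2, 816 and 795 with sg1 and 712 and 723 with sgNTG. RPL7AP6, from RPL7A, a large-subunit protein, had 636 and 638 FPKM with sg2, 730 and 715 with sg1 and 671 and 651 with sgNTG. The other 5 of the 10 highest members had means of 670 FPKM for RPL36AP37, 603 for RPL10P16, 440 for RPS3AP6, 432 for RPS2P5 and 430 for RPS7P1.

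Set beside its parent on the per-length FPKM scale, the median member stood at 0.338 of the parent's level, with a range of 0.00858 to 17.9. A total of 14 members exceeded their parent, 9 of them by at least 2 times, and 25 had under 10% of its level. RPL36AP37 had 614 and 625 FPKM with sg2, 738 and 700 with sg1 and 670 and 674 with sgNTG, while RPL36A itself had 36.2 and 38.4 FPKM with sg2, 37.3 and 35.5 with sg1 and 37.7 and 39.3 with sgNTG, a ratio of 17.9. The ratio was 15.4 for RPL39P3 over RPL39, 5.52 for RPL23AP42 over RPL23A and 5.25 for RPS27P3 over RPS27, a small-subunit zinc finger protein. Of these 4, RPL36AP37 and RPL39P3 were identical to the parent's coding sequence, and the other two lay within 2 substitutions of it. The 33 members with at least 98% identity had a median of 178 FPKM and a median ratio of 0.734. The 25 members under 98% had a median of 13.4 FPKM and a median ratio of 0.042, and the highest of them, RPL29P4, had 225 FPKM. Members with an uninterrupted frame (27) had a median ratio of 0.720, against 0.078 in the 31 others. Full identity also occurred at a low level: RPL41P2, a row of 409 nt whose 78 nt coding stretch matched RPL41 fully, had a mean of 6.13 FPKM and a ratio of 0.0220.

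**Figure D1:**
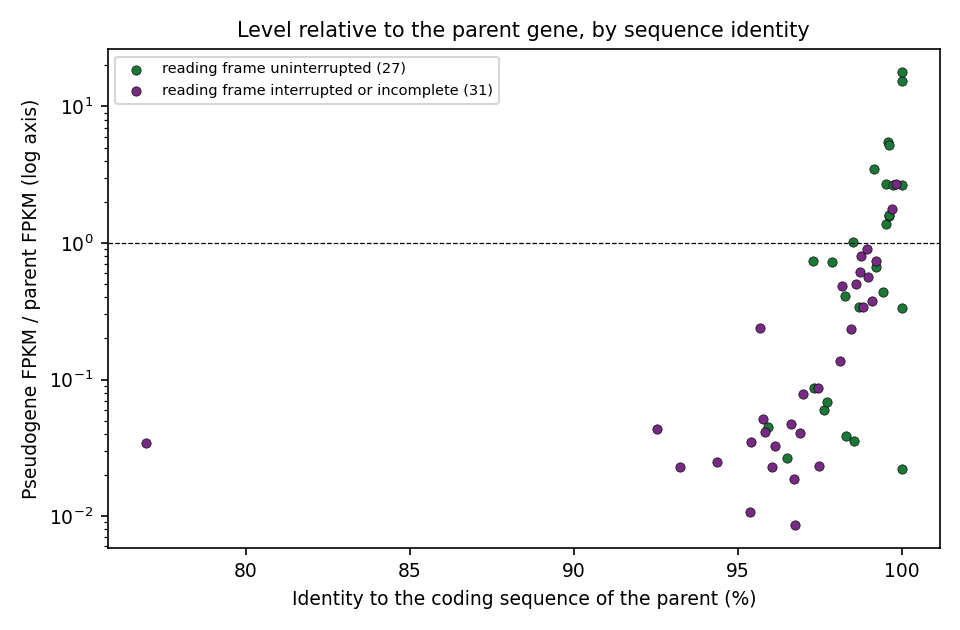
Each point is 1 of the 58 pseudogenes with a listed parent. The x axis gives identity over the aligned part of the parent's coding sequence (%). The y axis gives the ratio of mean FPKM to the parent's mean FPKM on a log axis. Colour shows whether the reading frame was uninterrupted. Ratios above 1 lie at the right edge, at 98% identity or more, where the median ratio was 0.734, against 0.042 below 98%.

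Summed over the members, the level was lower with sg2 than with sg1. The sums were 14331 and 14246 FPKM in the sg2 libraries, 16455 and 16122 in the sg1 libraries and 15222 and 15048 in the sgNTG libraries. The groups did not overlap, and sgNTG lay between the guides. The sg2 mean was 12.3% below the sg1 mean and 5.59% below the sgNTG mean, and the sg1 mean was 7.62% above the sgNTG mean. With 2 libraries a group the exact two-sided permutation test gave p = 0.333 for each pair, the smallest it can give. The 44 listed ribosomal protein genes summed to 11896 ± 77.3 FPKM with sg2, 13373 ± 47.1 with sg1 and 12607 ± 183 with sgNTG, and 57 numbered pseudogenes of other housekeeping genes to 5266 ± 52.6, 5856 ± 64.5 and 5575 ± 53.1 FPKM in the same groups (SD, n = 2 each). The sum of the whole table stood in the same order of means, with 253304 and 251924 FPKM for sg2, 258872 and 260750 for sg1 and 256012 and 253846 for sgNTG, and its part in the result was not tested.

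**Figure D2:**
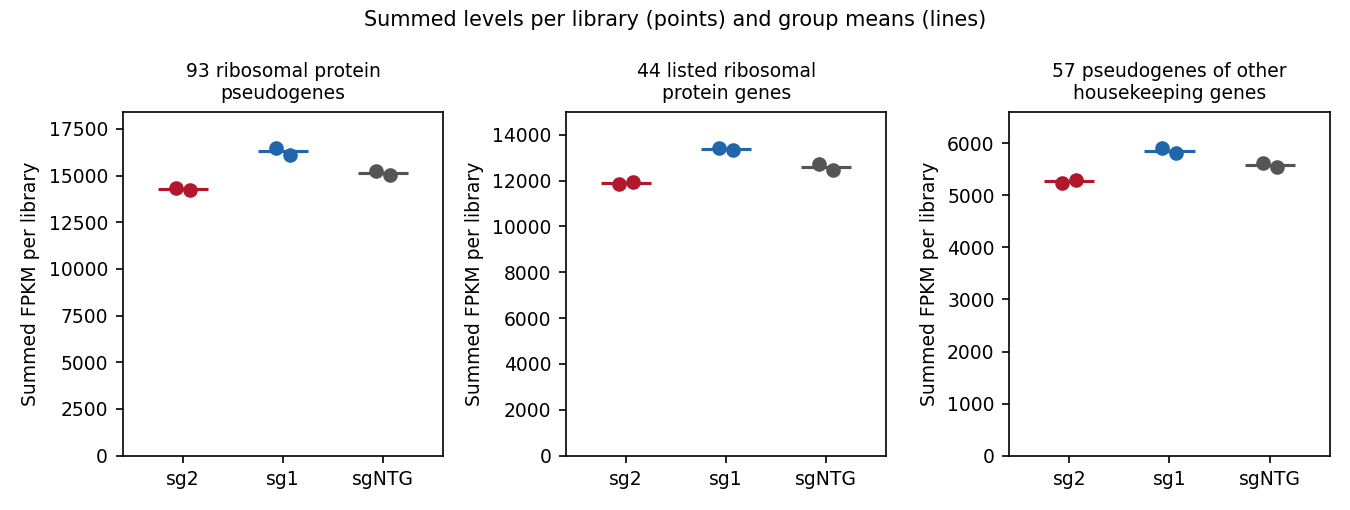
Points are the summed FPKM of each library and lines the group means, for the 93 ribosomal protein pseudogenes, 44 ribosomal protein genes and 57 pseudogenes of other housekeeping genes; the groups on the x axis are sg2, sg1 and sgNTG. In each panel both sg2 libraries lie below both sgNTG libraries and both sg1 libraries above them.

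The direct comparison of the 2 guides asked whether they left the members at the same level. With sg2, 12 members were lower than with sg1 past the threshold and 0 were higher (limma on log2(FPKM + 1), Benjamini-Hochberg adjusted p under 0.05 over all rows). Over the 8887 rows tested, all with a mean of at least 1 FPKM, 0.776% were called lower and 0.518% higher, 1.29% in all. All 93 members were among the rows tested. At an unadjusted p under 0.05, 67 members were lower and 1 was higher, where 9.1% of all rows were lower and 7.93% higher. The sg2 libraries lay wholly below the sg1 libraries in 75 members, against 24.2% of all rows, and wholly above them in 3, against 24.4%. The median log2 difference was -0.19 over the members, with 90 of 93 below 0, and 0.0016 over all rows, with 49.6% below 0. On the log2(FPKM + 1) scale the differences of low rows are understated.

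The calls lay among the abundant members. Of the 38 members at 100 FPKM or more, 11 were called lower, and all 38 had both sg2 libraries below both sg1 libraries. Abundant rows leaned the same way in general: over all 343 rows at that level, members included, 44 were called lower and 7 higher, the median was -0.09 and 68.8% were below 0, against a median of -0.18 in the 38 members. In 197 of these 343 rows both sg2 libraries lay below both sg1 libraries, and in 76 above them. Of the 24 members from 20 to 100 FPKM, all were below 0 and 1 (4.17%), RPS13P2, was called lower. Of all 1419 rows at that level 56.3% were below 0, and 11 were called lower and 25 higher, 2.54% in all. Of the 31 under 20 FPKM, 28 were below 0 and 0 were called, while 11 were lower and 1 higher at an unadjusted p under 0.05. Of all 3258 rows from 5 to 20 FPKM, 48.1% were below 0, 8 were called lower and 13 higher, and 249 were lower and 295 higher at an unadjusted p under 0.05. The median difference of the 31 low members, -0.21, was no smaller than that of the abundant members, but replicates also lay further apart, by a median of 0.15 on the log2 scale, against 0.04 at 100 FPKM or more. Over all rows from 5 to 20 FPKM the replicates lay 0.08 apart, closer than in the members of that level. By subunit, 7 of 63 large-subunit and 5 of 30 small-subunit members were called, with medians of -0.19 in both.

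**Figure D3:**
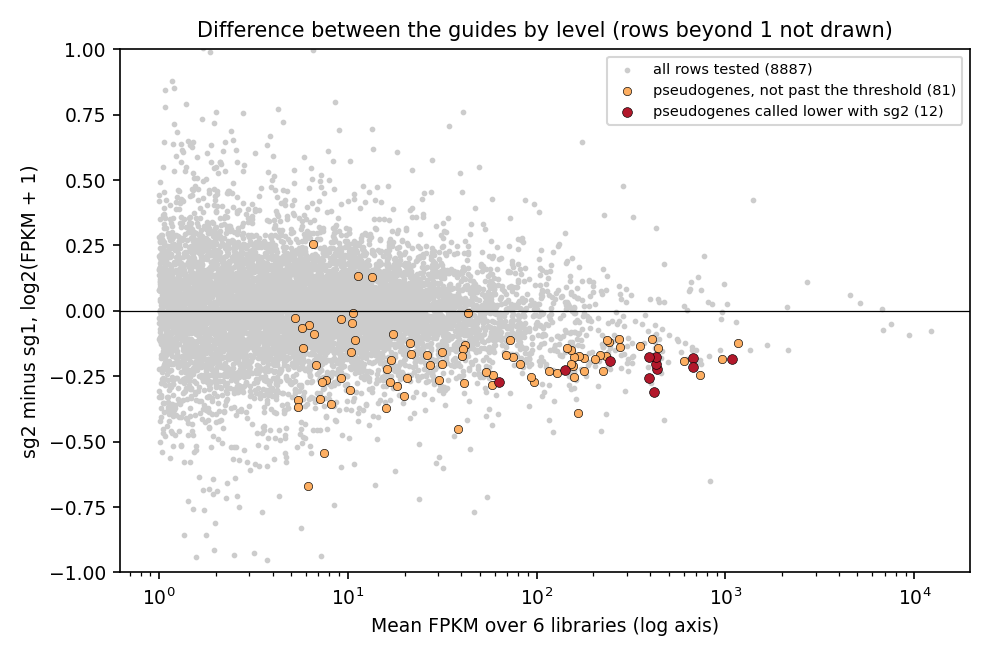
The x axis is the mean FPKM over the 6 libraries (log axis) and the y axis the difference sg2 minus sg1 in log2(FPKM + 1); grey points are the 8887 rows tested, orange points the 81 pseudogenes not past the threshold and red points the 12 called lower with sg2. All but 3 pseudogenes lie below 0, and the 12 red points have means of 63.0 to 1089 FPKM.

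Among large-subunit copies, RPL3P4 had 355 and 360 FPKM with sg2, 427 and 426 with sg1 and 408 and 387 with sgNTG; its parent RPL3 lies near the peptidyl transferase centre. The 3 groups did not overlap, and sg2 minus sg1 was -0.26 (SE 0.0326, limma adjusted p = 0.0347). RPL36AP37, whose values are given above, had a difference of -0.21 (SE 0.0318, limma adjusted p = 0.0442). Its parent RPL36A, identical over the coding sequence, had a difference of 0.03 (SE 0.0516, limma adjusted p = 0.787). For RPL7P1, from RPL7, the values were 222 and 228 FPKM (sg2), 254 and 260 (sg1) and 247 and 250 (sgNTG), a difference of -0.19 between the guides. RPL13AP5 had a difference of -0.18 and RPL7AP6 of -0.18. RPL18AP3 had 408 and 402 FPKM with sg2, 457 and 458 with sg1 and 420 and 431 with sgNTG (difference -0.17). RPL6P27, from RPL6, had 371 and 377 FPKM with sg2, 425 and 421 with sg1 and 395 and 383 with sgNTG (difference -0.18). In all 7 large-subunit copies called, both sgNTG libraries lay between the guides.

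Among small-subunit copies, RPS2P5 had the lowest p, with 408 and 401 FPKM with sg2, 472 and 472 with sg1 and 419 and 422 with sgNTG; RPS2 forms part of the channel through which messenger RNA enters. Its sg2 libraries lay below both other groups, and sg2 minus sg1 was -0.22 (SE 0.0248, limma adjusted p = 0.0293). RPS27P3 had 371 and 384 FPKM with sg2, 488 and 448 with sg1 and 426 and 408 with sgNTG, and the largest called difference, -0.31 (SE 0.0482, limma adjusted p = 0.0479). RPS13P2, a copy of the small-subunit protein RPS13 and the lowest called member, had 56.7 and 58.5 FPKM with sg2, 68.8 and 70.6 with sg1 and 61.8 and 61.5 with sgNTG (difference -0.27, SE 0.0379, limma adjusted p = 0.0382). RPS27AP5, the copy annotated as protein coding, had 130 and 131 FPKM with sg2, 152 and 154 with sg1 and 144 and 142 with sgNTG (difference -0.23). RPS7P1, from RPS7, a protein also known to bind MDM2, had 402 and 397 FPKM with sg2, 450 and 471 with sg1 and 436 and 423 with sgNTG (difference -0.20). Over all 12 called members the difference ran from -0.31 to -0.17 and the limma adjusted p from 0.0293 to 0.0496.

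**Figure D4:**
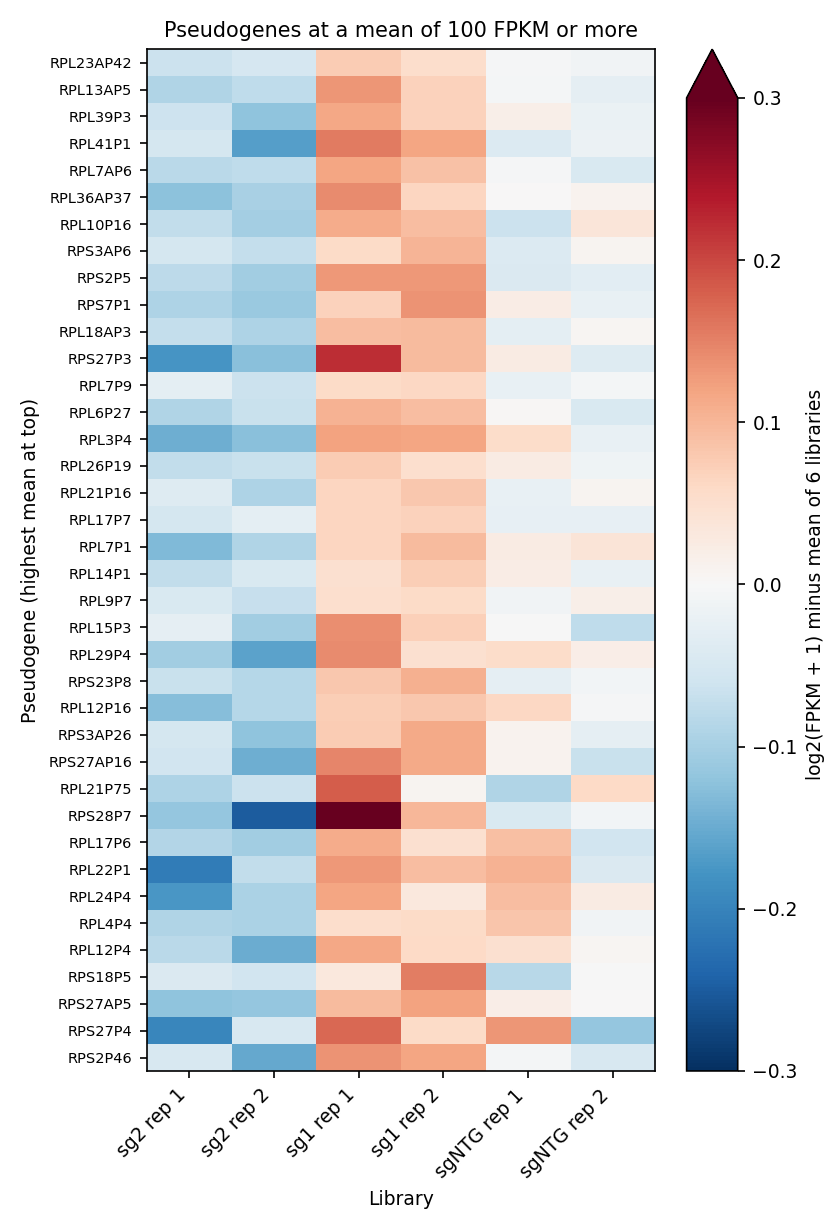
Rows are the 38 pseudogenes with a mean of 100 FPKM or more, highest at the top, and columns the 6 libraries; colour gives log2(FPKM + 1) minus the mean of the 6 libraries, from blue (lower) to red (higher), with values above 0.3 drawn in the darkest red. Both sg2 columns are blue and both sg1 columns red in nearly every row, with sgNTG mostly between them; RPS28P7 had the widest sg1 values, 206 and 177 FPKM.

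These calls rest on small differences in few libraries, and 0 members were called when sg2 replicate 1, sg2 replicate 2, sg1 replicate 1 or sg1 replicate 2 was left out, 1 when sgNTG replicate 1 or sgNTG replicate 2 was left out, 0 without a variance trend in the fit or without a filter on low values, 1 with quantile normalization, 1 with only the 4 libraries of the guides, and 24 with only rows of at least 5 FPKM tested. Over all rows tested, 0 were called without a variance trend and 22 of 52775 without a filter. Quantile normalization called 85 of 8887 rows, the 4 libraries of the guides 26 of 8887, and the 5 FPKM filter 217 of 5020. The reported fit called 115 of 8887. The number of members below 0 was 90 with either other pseudocount and with median-of-ratios scaling, 88 with quantile normalization, and 82 to 88 when an sg2 or sg1 library was left out. In the 75 members without overlap and lower with sg2, pseudocounts or a library left out could not change the sign.

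The members of highest level did not all pass. RPL23AP42 had a difference of -0.12 (SE 0.0216, limma adjusted p = 0.0643), RPL39P3 of -0.18 (limma adjusted p = 0.0561) and RPL41P1 of -0.25 (limma adjusted p = 0.0524). RPL10P16, from RPL10, which joins the large subunit in its last steps of assembly, had 571 and 561 FPKM with sg2, 650 and 642 with sg1 and 575 and 617 with sgNTG (difference -0.19, limma adjusted p = 0.0768). RPS3AP6, from the small-subunit protein RPS3A, had 424 and 418 FPKM with sg2, 458 and 472 with sg1 and 427 and 442 with sgNTG (difference -0.14, limma adjusted p = 0.0936). In each of these 5 both sg2 libraries lay below both sg1 libraries. The widest differences without a call were those of low members, -0.67 for RPL41P2 (3.69 and 5.03 FPKM with sg2, 7.92 and 7.01 with sg1, 5.75 and 7.36 with sgNTG) and -0.54 for RPL13AP20 (6.13 and 5.82 FPKM with sg2, 9.06 and 9.26 with sg1, 8.44 and 6.14 with sgNTG), which were picked after their values were seen.

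Only 3 members had a positive difference between the guides, and none of them passed the test. RPS17P11 had 14.8 and 14.0 FPKM with sg2, 12.9 and 13.2 with sg1 and 12.5 and 12.8 with sgNTG (difference 0.13, SE 0.0557, limma adjusted p = 0.304). RPS18P12, from RPS18, a protein of the subunit interface, had 11.7 and 11.9 FPKM with sg2, 10.6 and 10.8 with sg1 and 11.7 and 11.6 with sgNTG (difference 0.13, limma adjusted p = 0.277). RPL35P5, from RPL35, had 6.52 and 6.89 FPKM with sg2, 6.32 and 4.69 with sg1 and 8.16 and 6.70 with sgNTG (difference 0.25, limma adjusted p = 0.417). RPS18P12 shared no more than 69 nt in a row with RPS18, whose own difference was -0.14.

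Most listed parents lay below 0, as most copies did. Of the 28 parents, 7 were called lower with sg2 than with sg1 and 0 higher, 25 were below 0, and the median was -0.16. RPL23A had 187 and 184 FPKM with sg2, 229 and 223 with sg1 and 219 and 219 with sgNTG (difference -0.29, SE 0.0298, limma adjusted p = 0.0220), while its abundant copy RPL23AP42 stood at -0.12. RPS7 had 115 and 103 FPKM with sg2, 137 and 140 with sg1 and 125 and 121 with sgNTG (difference -0.34, limma adjusted p = 0.0479), beside -0.20 for RPS7P1. RPL13A stood at -0.27 (limma adjusted p = 0.0511) beside -0.18 for RPL13AP5, and RPL7A at -0.15 (limma adjusted p = 0.0524) beside -0.18 for RPL7AP6. In 53 of 58 pairs copy and parent had the same sign. With 56 of the 58 copies and 25 of the 28 parents below 0, most pairs would share a sign even if unrelated. The count thus does not show that a copy follows its own parent. The copy's difference minus the parent's had a median of -0.0070 and a range of -0.45 to 0.28. The pairs of opposite sign included RPS18P12, above, and RPL36AP37, RPL4P4 and RPS10P3, whose parents RPL36A, RPL4 and RPS10 were at 0.03, 0.08 and 0.24 without passing. RPL4 had 610 and 746 FPKM with sg2, 607 and 668 with sg1 and 642 and 601 with sgNTG, so that its libraries overlapped. The 33 copies with at least 98% identity were all below 0 with a median of -0.18, and of the 25 others 23 were, with a median of -0.17. Of the 35 members without a listed parent, 34 were below 0 with a median of -0.19, and 4 were among the 12 called (RPS2P5, RPL3P4, RPS13P2 and RPL6P27).

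**Figure D5:**
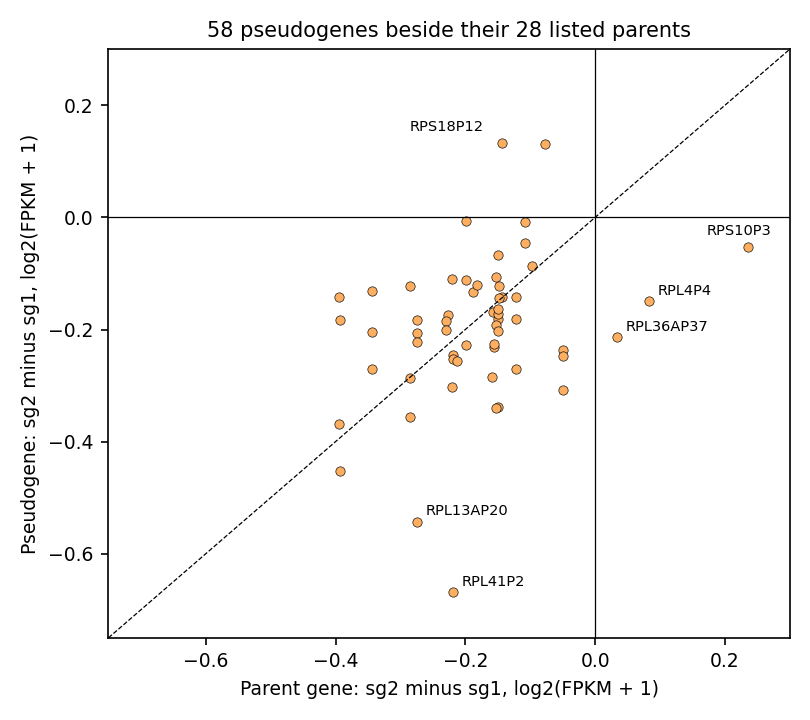
Each point is a pseudogene, with the parent's difference sg2 minus sg1 in log2(FPKM + 1) on the x axis and the pseudogene's on the y axis; the dashed line marks equal differences and the solid lines 0. Of the 58 points, 53 lie in the quadrants where both have the same sign, and RPS18P12, RPL36AP37, RPL4P4 and RPS10P3 are among those outside them. As 56 of the 58 pseudogenes and 25 of the 28 parents were below 0, most pairs would share a sign even if unrelated.

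Several members share a parent and so share sequence. The parents with most members were RPL7A with 6, RPL21 with 5, and RPL17 and RPL13A with 4 each. The RPL7A copies ran from 5.73 FPKM (RPL7AP70) to 674 FPKM (RPL7AP6) in their means and from -0.34 to -0.07 in sg2 minus sg1. The RPL13A copies ran from 7.48 to 1089 FPKM and from -0.54 to -0.18. RPL21P16 led the RPL21 copies with 270 and 260 FPKM with sg2, 290 and 293 with sg1 and 273 and 279 with sgNTG, and RPL17P7 those of RPL17, an exit tunnel protein, with 264 and 269 FPKM with sg2, 287 and 288 with sg1 and 269 and 269 with sgNTG. In both, the sg2 libraries lay below the sg1 libraries without a call (differences -0.14 and -0.11, limma adjusted p = 0.105 and 0.121).

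Adding each listed parent to all its listed numbered pseudogenes gave 28 family sums. Apart from the scaling by length, these do not depend on how reads were divided within a family. Shared reads that were dropped or given to rows outside the family would still change the sums, and their treatment is not given. The members held between 3.34% and 93.9% of a family's sum, with a median of 51.5%, and over 50% in 15 families. That median share was 51.9% and 51.2% in the sg2 libraries, 51.2% and 51.3% in the sg1 libraries and 51.8% and 51.3% in the sgNTG libraries. Of the 28 families, 11 were called lower with sg2 than with sg1 and 0 higher, where 0.741% of the 8774 rows tested in that fit were called lower and 0.524% higher. A total of 26 were below 0, and their median was -0.18. The RPL41 family, with the lowest p, had 1048 and 1002 FPKM with sg2, 1217 and 1207 with sg1 and 1095 and 1104 with sgNTG (difference -0.24, SE 0.0276, limma adjusted p = 0.0289). The RPL7A family had 1391 and 1380 FPKM with sg2, 1567 and 1546 with sg1 and 1448 and 1441 with sgNTG (difference -0.17, limma adjusted p = 0.0314). In both the 3 groups did not overlap. The calls were lost when any 1 of the 6 libraries was left out, and 9 families were called when the rows were added in proportion to their length.

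Other lists placed the members in the table. Of the 44 listed ribosomal protein genes 10 were called lower with sg2 than with sg1, 7 of 24 in the large and 3 of 20 in the small subunit, 41 were below 0 and the median was -0.18. The largest called difference among them was -0.34 in RPS7. Of the 57 numbered pseudogenes of other housekeeping genes 3 were called lower, 51 were below 0 and the median was -0.14. The 3 were EEF1A1P5 (-0.15) and EEF1A1P6 (-0.20), copies of the translation elongation factor EEF1A1, and PPIAP22 (-0.17), a copy of cyclophilin A. Of 13 tested translation genes of the 5' terminal oligopyrimidine class, whose translation follows mTOR signalling, 2 were called lower and the median was -0.17. Of the 3 tested ribosomal protein paralogs 0 were called, and 1 was lower at an unadjusted p under 0.05. Of the ribosomal protein pseudogenes under 5 FPKM, 97 were tested, 0 were called, 9 were lower and 3 higher at an unadjusted p under 0.05, 68 were below 0 and the median was -0.12.

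Against the nontargeting guide no member passed in either direction with either guide, and both comparisons use the same sgNTG libraries. With sg1, 0 members were called by limma, 36 were higher and 1 lower at an unadjusted p under 0.05 (5.87% of all rows higher and 4.05% lower), and 0.0113% of all rows were called. The median log2 difference was 0.11, 84 of 93 were above 0, and 56 had both sg1 libraries above both sgNTG libraries, against 22.2% of all rows, while 3 lay wholly below, against 18.9%. Abundant rows leaned the same way. Of all 343 rows at 100 FPKM or more, 38 members and 37 ribosomal protein genes included, 69.7% were above 0. Of the 343, 167 lay wholly above and 69 wholly below. RPS2P5 had the lowest p, with a difference of 0.17 (limma adjusted p = 0.141), followed by RPL7AP6 at 0.13 and RPS13P2 at 0.17. The lowest p values on the negative side belonged to RPL35P5 (-0.38), RPS18P12 (-0.11) and RPL17P18 (-0.15), with limma adjusted p of 0.445 to 0.752.

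With sg2, 0 members were called by limma against sgNTG, 25 were lower and 3 higher at an unadjusted p under 0.05 (4.67% of all rows lower and 4.94% higher), and 0.0225% of all rows were called. The median was -0.08, 79 of 93 were below 0, and 58 had both sg2 libraries below both sgNTG libraries, against 18.7% of all rows, while 5 lay wholly above, against 22.3%. Here too abundant rows leaned the same way. Of all 343 rows at 100 FPKM or more, 38 members and 37 ribosomal protein genes included, 67.1% were below 0. Of the 343, 153 lay wholly below and 62 wholly above. RPL7P1 had the lowest p with a difference of -0.14 (limma adjusted p = 0.292), followed by RPL3P4 at -0.15 and RPS27AP5 at -0.13. On the positive side RPS17P11 stood at 0.17, RPL29P26 at 0.25 and RPS15AP38 at 0.29, with limma adjusted p of 0.429 to 0.493. RPL29P26, from RPL29, had 11.7 and 10.8 FPKM with sg2, 11.4 and 11.2 with sg1 and 8.49 and 10.1 with sgNTG, so that the CPT1 guides lay together above the control.

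The mean of both guides was also set against sgNTG. In limma 0 members were called, 5 were higher and 0 lower at an unadjusted p under 0.05 (3.74% of all rows higher and 2.57% lower), and 0.0113% of all rows were called. The median was 0.01, with 52 members above 0 and 41 below, and 4 members had all 4 CPT1 libraries above both sgNTG libraries, against 7.06% of all rows, and 0 had them all below, against 5.21%. RPS15AP38, from the small-subunit protein RPS15A, had the lowest p, with 5.83 and 6.09 FPKM with sg2, 6.69 and 6.67 with sg1 and 4.06 and 5.37 with sgNTG (difference 0.37, SE 0.0983, limma adjusted p = 0.656). RPL29P11 stood at 0.16 and RPL29P26 at 0.26. On the negative side RPL24P4, from RPL24, had 137 and 145 FPKM with sg2, 168 and 158 with sg1 and 165 and 157 with sgNTG (difference -0.09), ahead of RPL35P5 at -0.25 and RPL7AP66 at -0.09.

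At the threshold of 5 FPKM the choice of members fell among rows with wide replicates. Just inside stood RPS20P14 with a mean of 5.24 FPKM, RPS15AP1 with 5.43 and RPL7P23 with 5.46, and just outside RPL36AP7 with 4.89, RPL13P5 with 4.89 and RPS28P4 with 4.88. RPS20P14, from the small-subunit protein RPS20, had 4.78 and 5.91 FPKM with sg2, 4.55 and 6.49 with sg1 and 5.69 and 4.05 with sgNTG. RPL36AP7 had 4.76 and 5.71 FPKM with sg2, 5.19 and 4.13 with sg1 and 5.25 and 4.32 with sgNTG. In both rows the groups overlapped.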

How the data were processed

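Per the labels' protocols, TRIzol was used to extract RNA from NCI-H460 cells, and bead-captured mRNA went into the libraries. STAR, StringTie and build hg38 are named in the submitters' processing notes; not given in the sources used here are versions, annotation, strand setting and the treatment of reads that match several places. A single table of FPKM values was deposited by the authors, normalized for transcript length and mapped fragments, with a column for each of the 6 libraries. It held 52807 rows with 51447 distinct names; 32 rows that repeated a name with the same values were kept once.

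Rows with a mean of at least 1 FPKM (8887) were tested as log2(FPKM + 1) with limma 3.58.1 in R 4.3.3 (1 mean per group over all 6 libraries, variance trend, no block), two-sided, with Benjamini-Hochberg adjustment over all rows and a threshold of 0.05. The sums of families were fitted in the same way. The code was tested on simulated data. Coding sequences were taken from GENCODE 29 transcripts and aligned with Biopython 1.88. The FPKM scale gives no read counts, so no count test was run.

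Named were the 10 highest members, those called, the 3 of lowest p in each direction of each comparison, the rows beside the 5 FPKM threshold, their parents, and the parents with most members; others were named after their values were seen. Members and lists were chosen with earlier results of these data known. Alternatives were the pseudocount, the filter, the variance trend, a robust fit, quantile and median-of-ratios scaling, a replicate block, only the libraries compared, each library left out, repeated rows left out, families summed by length, and member thresholds of 1 and 10 FPKM. Some items are not reported here.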

Additional observations from a re-analysis of the deposited data

Results flagged for a closer look

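In 12 members the effect of sg2 against sgNTG differed from that of sg1 against sgNTG past the threshold (limma, adjusted over all 8887 rows). Both effects use the same sgNTG libraries, and the difference is the comparison of sg2 with sg1 reported above. In that comparison 0.776% of all rows were called lower and 0.518% higher, and most calls of members were lost under several settings given below. Each of the 12 members lay below sgNTG with sg2 and above it with sg1, and neither effect passed the test alone. Among the small-subunit copies, RPS27P3 stood at -0.14 with sg2 and 0.16 with sg1, a difference of -0.31. RPS13P2 stood at -0.10 with sg2 and 0.17 with sg1, a difference of -0.27. The difference was -0.23 for RPS27AP5 (-0.13 with sg2 and 0.10 with sg1), -0.22 for RPS2P5 (-0.05 and 0.17) and -0.20 for RPS7P1 (-0.10 and 0.10).

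Among the large-subunit copies, RPL3P4 stood at -0.15 with sg2 and 0.10 with sg1, a difference of -0.26. RPL36AP37 stood at -0.12 with sg2 and 0.10 with sg1, a difference of -0.21. The difference was -0.19 for RPL7P1 (-0.14 with sg2 and 0.05 with sg1) and -0.18 for RPL13AP5 (-0.07 and 0.12), RPL7AP6 (-0.05 and 0.13) and RPL6P27 (-0.06 and 0.12). RPL18AP3 stood at -0.07 with sg2 and 0.10 with sg1, a difference of -0.17.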

How the results depend on the processing

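The 12 members and 11 families called lower with sg2 than with sg1 depended on the fit. No member and no family was called without a filter on low values or without a variance trend. Over all rows, 22 of 52775 were called without the filter and 0 without the trend. A filter at a mean of 5 FPKM called 24 members among 217 of 5020 rows. Quantile normalization called 1 member among 85 of 8887 rows and 0 families. The 4 libraries of the 2 guides alone called 1 member among 26 of 8887 rows and 0 families. Median-of-ratios scaling called 8 members among 107 of 8887 rows, 6 of the 8 among the 12, and 7 families. Leaving out each library in turn called 0 to 1 members and 0 families; where this left 1 library in a group, limma assumed that it varies like the others. The other pseudocounts, the robust fit, the other member thresholds and leaving out repeated rows called 10 to 16 members, among 108 to 134 of 8887 rows. Weighting rows by length called 9 families. In the other 3 comparisons 0 members were called in every setting. None of the 12 changed sign under quantile normalization or median-of-ratios scaling. In each of the 12 both sg2 libraries lay below both sg1 libraries, so pseudocounts or a library left out could not change the sign. The cause of the lost calls was not tested.

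Libraries share replicate numbers across groups, but same-numbered libraries did not deviate together (correlations of 0.0603 for sg2 and sg1, -0.0276 for sg2 and sgNTG and 0.0343 for sg1 and sgNTG), so the numbers were not taken as pairs. With a replicate block 0 members and 0 families were called between the guides, where 5 of 8887 rows were called. In each other comparison 0 members were called with the block. Unknown depth and 2 libraries a group limit what members under 20 FPKM can show.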
